A study of Rattus norvegicus with 16 samples.

Results

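The complement genes described here are 9 transcripts of the rat glomerulus, C1qa, C1qb, C1qc, C1s, C3, Cfb, Cfd, Cd55 and Cd59, chosen by name as C1q chains, proteases, the central component C3 and membrane regulators. All 9 were among the 36351 genes of the deposited count table, and all 9 passed the filter on low counts that left 17061 genes for testing. The table holds RNA of isolated glomeruli, the filtering units of the kidney, taken on day 11 of a nephrotic syndrome model, with 16 libraries in 4 groups of 4 rats. PAN+Pio rats were given puromycin aminonucleoside (PAN), which injures podocytes, as 50 mg/kg into the tail vein on day 0. They then had pioglitazone, which activates PPAR gamma, daily by mouth at 10 mg/kg. PAN+MP rats received the same toxin and then methylprednisolone, a glucocorticoid, at 15 mg/kg by intraperitoneal injection each day. PAN rats received the toxin and vehicle by mouth, and Sham rats, the healthy controls, received vehicle by mouth. The vehicle controls were thus dosed by mouth, while methylprednisolone was injected. The study asked which changes of the disease model are lessened by each drug.

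Complement is a cascade of plasma proteins that tags and lyses targets. C1q, assembled from the A, B and C chains, recognises bound antibody and cell debris and activates the proteases C1r and C1s, which open the classical pathway. C3 is the hub of all routes, and factor B and factor D drive the alternative pathway that amplifies it. Cd55 breaks up the convertases on the cell surface and Cd59 blocks the membrane attack complex. C1q is made mainly by macrophages, while podocytes and endothelial cells carry surface regulators.

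Libraries held 22802109 to 32571877 counted reads and are numbered as their columns stand in the table, a number that pairs no libraries. Levels are CPM, counts scaled to the size of the library (the usual CPM of edgeR). A count of 3 reads, taken as the floor, equals 0.0932 to 0.133 CPM. Podocyte markers, which define the glomerulus, were abundant, and 8 of them summed to 28151 to 31594 CPM in PAN+Pio, 25119.9 to 29824 CPM in PAN+MP, 19554 to 29842 CPM in PAN and 20960.1 to 34395 CPM in Sham. Tubule RNA was present too, since 12 proximal tubule markers summed to 4900.0 to 6390.3 CPM in PAN+Pio, 5152 to 7908 CPM in PAN+MP, 2092 to 8906 CPM in PAN and 3097 to 6776 CPM in Sham. Lrp2 was the largest part of the tubule sums, and its log2 fold change in PAN against Sham was -0.46. Over the 12 tubule markers the median log2 fold change against Sham was 0.62 for PAN+Pio, 0.73 for PAN+MP and 0.69 for PAN. The medians of all tested genes were -0.0011, 0.0062 and 0.0062 in that order. EdgeR's test called none of the 12 against Sham. In a bulk sample, a higher number of cells of a type and more RNA per cell cannot be told apart.

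The 3 C1q chains stood highest in PAN glomeruli and lower under both drugs. C1qa, the A chain, had 13.2, 8.13, 10.7 and 10.2 CPM in PAN+Pio libraries 1 to 4, 16.4, 4.51, 12.8 and 14.3 CPM in PAN+MP, 29.7, 23.7, 21.4 and 23.4 CPM in PAN, and 15.6, 14.5, 16.8 and 11.1 CPM in Sham. Every PAN library lay above every library of the other 3 groups. C1qb, the B chain, had 6.69, 4.14, 6.20 and 6.59 CPM in PAN+Pio, 9.93, 2.74, 7.39 and 11.1 CPM in PAN+MP, 20.1, 15.5, 15.6 and 13.7 CPM in PAN, and 11.1, 7.83, 11.8 and 6.82 CPM in Sham. The same separation of PAN held, and the PAN+Pio libraries also lay below all Sham libraries. C1qc, the C chain, had 12.3, 8.52, 8.44 and 10.7 CPM in PAN+Pio, 14.8, 3.82, 9.13 and 18.1 CPM in PAN+MP, 27.8, 21.5, 20.2 and 19.9 CPM in PAN, and 14.4, 11.9, 17.8 and 9.67 CPM in Sham. For this chain too the PAN libraries did not overlap those of any other group. PAN+MP library 2 was the lowest of all 16 for each of the chains.

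**Figure D1:**
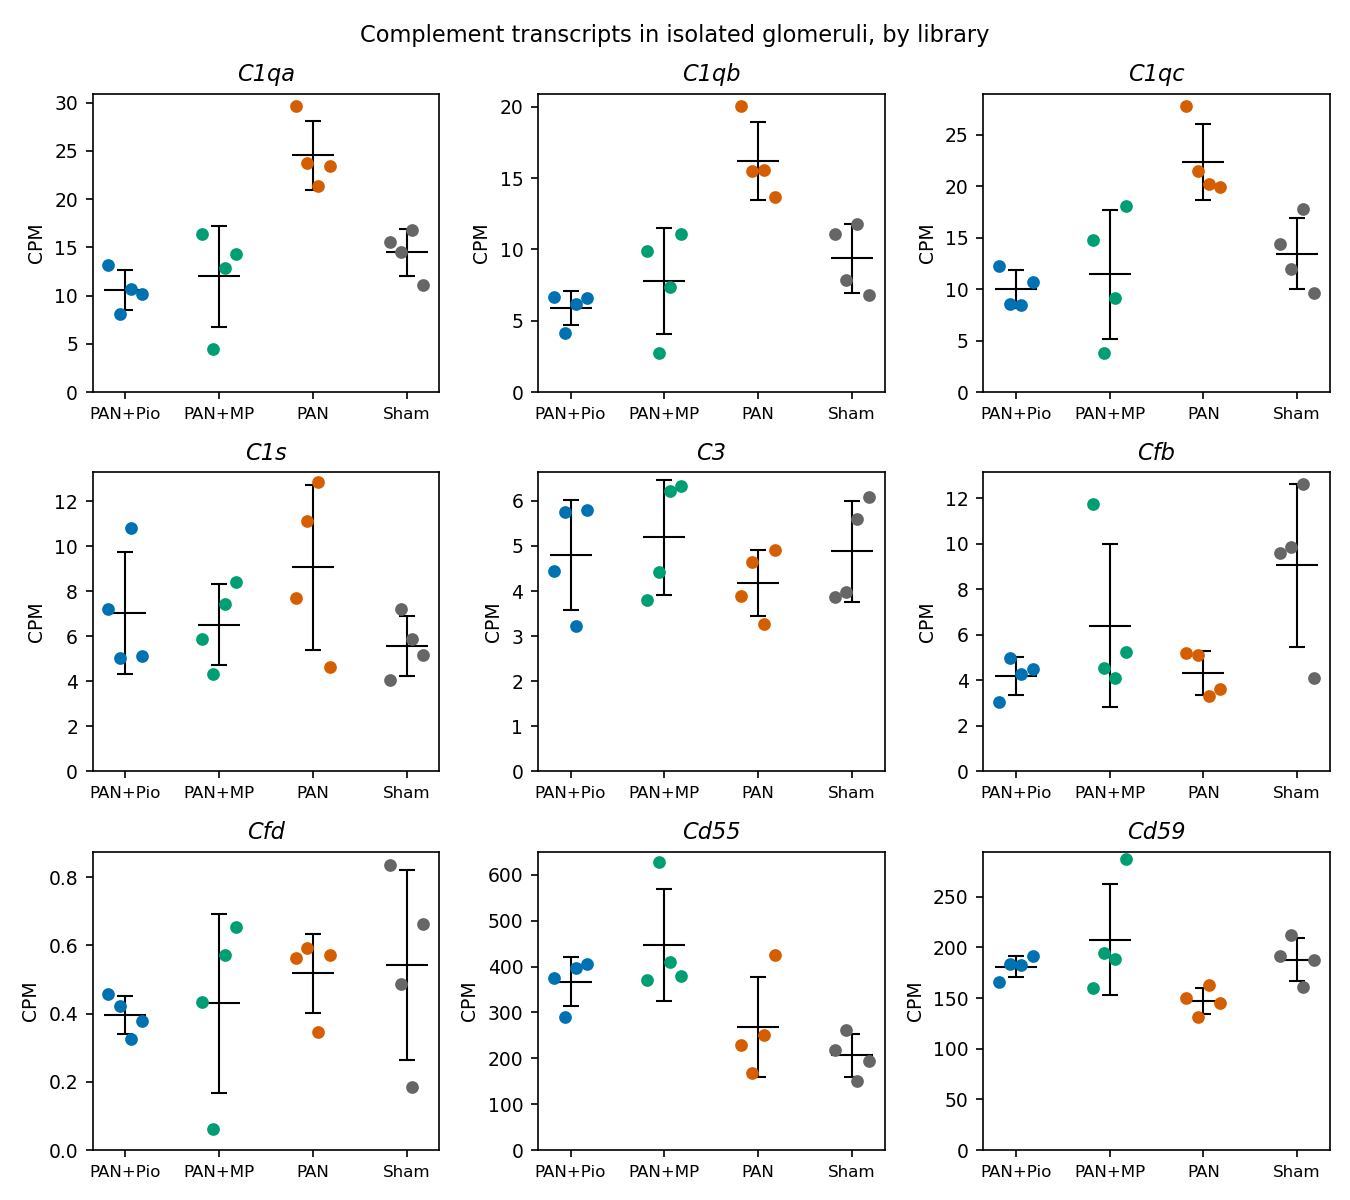
Level in CPM (vertical axis, from 0) of the 9 complement genes in each of the 16 libraries, with groups along the horizontal axis. Points are libraries in order 1 to 4, and the bar and whiskers give the mean and SD of 4 rats. The C1qa points of PAN lie between 21.4 and 29.7 CPM, above all others, and those of Cd55 in PAN+MP reach 627 CPM.

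Summed over the chains, C1q averaged 26.4 ± 4.70 CPM in PAN+Pio, 31.2 ± 14.8 CPM in PAN+MP, 63.1 ± 9.77 CPM in PAN and 37.3 ± 8.16 CPM in Sham (SD, n = 4). In that order of means, PAN stood apart from the rest, and PAN+Pio, PAN+MP and Sham overlapped one another. Against PAN, C1qa and C1qb fell under both drugs (quasi-likelihood F test of edgeR, p adjusted by Benjamini-Hochberg over all tested genes, called under 0.05). C1qa fell by 1.22 ± 0.28 on the log2 scale under pioglitazone (SE, adjusted p = 0.0226) and by 1.03 ± 0.28 under methylprednisolone (adjusted p = 0.0287). C1qb fell by 1.46 ± 0.32 under pioglitazone (adjusted p = 0.0175) and by 1.06 ± 0.31 under methylprednisolone (adjusted p = 0.0461). C1qc did not pass, with log2 fold changes of -1.16 ± 0.33 under pioglitazone (adjusted p = 0.0661) and -0.97 ± 0.33 under methylprednisolone (adjusted p = 0.0854). Both drugs were compared with the same PAN libraries, so the 2 sets of values are not independent.

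In PAN against Sham the chains had log2 fold changes of 0.76 ± 0.28 for C1qa, 0.79 ± 0.31 for C1qb and 0.73 ± 0.33 for C1qc, with edgeR adjusted p of 0.0656, 0.0879 and 0.128. None passed the threshold of 0.05, although the PAN and Sham libraries did not overlap for any chain. Fitted to the PAN and Sham libraries alone, all 3 passed, with edgeR adjusted p of 0.0112, 0.0317 and 0.0348. C1qa also passed in DESeq2 (adjusted p = 0.0413).

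Each call of C1qa and C1qb against PAN was lost on leaving out at least 1 single library. Without the 2 libraries whose columns bear a tag (Sham library 2 and PAN+Pio library 3), both PAN+Pio calls (edgeR adjusted p = 0.0720 for C1qa and 0.0554 for C1qb) and the PAN+MP call of C1qb (0.0703) were lost. The PAN+MP call of C1qa was lost without PAN library 1 (log2 fold change -0.93, edgeR adjusted p = 0.0815), PAN library 2 (-1.04, 0.0572) or PAN+MP library 3 (-1.06, 0.0678). That of C1qb was lost on leaving out any of the 8 libraries but PAN+MP library 4, with edgeR adjusted p from 0.05005 to 0.125 in the other 7. Without PAN+MP library 2 its log2 fold change was -0.77. The PAN+Pio call of C1qa was lost without PAN library 1 (edgeR adjusted p = 0.0649), PAN library 2 (0.0546), or PAN+Pio library 2 (0.0881), 3 (0.0546) or 4 (0.0659). That of C1qb was lost without PAN library 1 (edgeR adjusted p = 0.0515) or PAN+Pio library 2 (0.0725). The log2 fold changes of these chains kept their sign throughout, at -1.34 to -1.11 for C1qa and -1.52 to -1.31 for C1qb under pioglitazone over 14 alternatives. Fitted to the PAN+MP and PAN libraries alone, neither C1qa (edgeR adjusted p = 0.0972) nor C1qb (0.117) passed. C1qc, not called against PAN, passed in DESeq2 under both drugs (adjusted p = 0.0133 in PAN+Pio and 0.0373 in PAN+MP). In edgeR C1qc passed in PAN+Pio when only the 2 groups were fitted (adjusted p = 0.0119), and in PAN+MP without PAN+MP library 4 (log2 fold change -1.27, edgeR adjusted p = 0.0331).

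The 3 genes lie next to each other on chromosome 5, in the order C1qb, C1qc, C1qa in RefSeq's annotation. Because C1qa and C1qb moved together and C3 did not pass the test in any comparison, the promoters of these 3 genes are shown, from 250 bases before to 50 bases after the annotated start, as given by RefSeq for the build GRCr8. Capitals in the C1qa and C1qb sequences mark GGAAGT, or ACTTCC where it lies on the other strand, the core bound by ETS factors such as PU.1 of myeloid cells. Capitals in the C3 sequence mark TTGCNNAA, a C/EBP motif, and C/EBP factors are known regulators of acute phase genes. The window shown lies at chr5:154419884-154420183 for C1qa, chr5:154407778-154408077 for C1qb and chr9:2201290-2201589 for C3, all on the minus strand.
C1qa: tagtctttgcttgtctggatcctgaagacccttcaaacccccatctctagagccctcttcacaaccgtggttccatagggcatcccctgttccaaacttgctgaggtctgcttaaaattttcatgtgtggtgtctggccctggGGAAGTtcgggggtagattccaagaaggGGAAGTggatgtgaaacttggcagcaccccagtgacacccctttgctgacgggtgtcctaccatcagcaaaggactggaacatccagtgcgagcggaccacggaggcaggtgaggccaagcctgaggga
C1qb: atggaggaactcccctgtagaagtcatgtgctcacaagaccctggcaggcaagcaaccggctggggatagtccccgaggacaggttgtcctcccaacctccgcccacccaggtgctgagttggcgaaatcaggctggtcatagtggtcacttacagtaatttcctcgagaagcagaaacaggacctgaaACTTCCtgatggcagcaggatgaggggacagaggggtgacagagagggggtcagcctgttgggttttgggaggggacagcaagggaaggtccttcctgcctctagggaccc
C3: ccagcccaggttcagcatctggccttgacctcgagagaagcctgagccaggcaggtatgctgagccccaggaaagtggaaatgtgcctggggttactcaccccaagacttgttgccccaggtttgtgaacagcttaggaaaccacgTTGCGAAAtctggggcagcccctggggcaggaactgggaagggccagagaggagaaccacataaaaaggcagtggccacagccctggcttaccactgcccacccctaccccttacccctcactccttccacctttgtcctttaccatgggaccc
Searched on both strands, GGAAGT occurred at 107 and 79 bases before the start of C1qa and at 61 bases before that of C1qb. It was not found in the windows of C3, Cfd or Cd55, the other members with a promoter in the table, and 22.6% of all 33469 promoters of this length held it. TTGCNNAA occurred only in the C3 window among these 5, at 104 bases before the start, and in 10.6% of all promoters. ACANNNTGT, an inverted repeat of the glucocorticoid receptor, occurred at 171 bases before the start of C1qb and in none of the other 4, against 6.86% of all promoters. The DR1 element, the direct repeat bound by PPAR gamma with its partner RXR, was in none of the 5 and in 0.0538% of all promoters. No motif found overlapped another in these windows. The motifs were picked after the C1q values were known, and a match is a description of the letters and not a binding site.

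Several macrophage markers moved in the same directions as C1q. Of 14 listed markers 13 were in the table and 12 were tested, and Cd163 stood under the floor on average. In PAN against Sham 4 of 12 rose and none fell by edgeR's test, under methylprednisolone 2 fell, and under pioglitazone 3 fell. These shares, 33.3%, 16.7% and 25%, stand beside 18.9%, 8.62% and 3.68% of all tested genes called. The markers had median log2 fold changes of 0.43 in PAN against Sham, -0.50 in PAN+MP against PAN and -0.63 in PAN+Pio against PAN. The median of all tested genes lay within 0.01 of 0 in each. Cx3cr1, the fractalkine receptor, had 10.7, 7.10, 7.66 and 7.76 CPM in PAN+Pio, 8.08, 4.98, 7.77 and 5.78 CPM in PAN+MP, 15.8, 21.5, 12.2 and 13.2 CPM in PAN, and 7.13, 7.43, 11.9 and 6.66 CPM in Sham. Its PAN libraries lay above all others, as for C1q. Cx3cr1 and Csf1r are named after their values were seen. Csf1r, the receptor of the macrophage growth factor CSF-1, averaged 27.3 CPM in PAN+Pio, 27.4 CPM in PAN+MP, 42.6 CPM in PAN and 28.5 CPM in Sham. Msr1, a scavenger receptor, did not follow, with 35.4 ± 14.6 CPM in PAN+Pio, 60.8 ± 27.0 CPM in PAN+MP, 46.3 ± 23.5 CPM in PAN and 96.6 ± 42.5 CPM in Sham (SD, n = 4). Ptprc, the leukocyte antigen CD45, did not pass either, at 36.3 ± 4.76 CPM in PAN+Pio, 34.2 ± 2.41 CPM in PAN+MP, 42.4 ± 11.1 CPM in PAN and 38.3 ± 10.9 CPM in Sham (edgeR adjusted p from 0.390 to 0.641).

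The summed macrophage markers ranged over 403 to 486 CPM in PAN+Pio, 388 to 654 CPM in PAN+MP, 527 to 878 CPM in PAN and 425 to 549.7 CPM in Sham. Lyz2, lysozyme, was the largest part of this sum, with 269 CPM in PAN+Pio, 353 CPM in PAN+MP, 366 CPM in PAN and 231 CPM in Sham on average. The mean sums were 453, 565, 642 and 489 CPM in that order. C1q per macrophage marker, the log2 ratio of the 2 sums, averaged -4.11 ± 0.15 in PAN+Pio, -4.33 ± 0.59 in PAN+MP, -3.33 ± 0.41 in PAN and -3.73 ± 0.23 in Sham (SD, n = 4). PAN+Pio lay below PAN by 0.79 with no overlap, and a two-sided exact permutation test gave p = 0.0286, the smallest that 70 splits of 4 against 4 allow. PAN+MP differed from PAN by -0.998 (exact p = 0.0571) and PAN from Sham by 0.40 (exact p = 0.171). Adjusted over these 3 tests the p values were 0.0857, 0.0857 and 0.171 by exact permutation, so none passed. PAN library 2 held the largest marker sum. Without it the differences were -1.17 in PAN+MP against PAN and 0.58 in PAN against Sham, each with an unadjusted exact p of 0.0286. No other of the 8 omissions changed the outcome of either test. With other omissions the exact p reached 0.143 in PAN+MP against PAN and 0.314 in PAN against Sham. For PAN+Pio against PAN, 4 of 8 omissions raised the exact p to 0.0571. The part of macrophage number in the C1q levels was not tested.

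Some mesangial markers moved in the same directions too. Of 6 listed, 2 rose and none fell in PAN against Sham, and 3 fell and none rose under each drug against PAN (edgeR). The shares called were 33.3% in PAN against Sham and 50% under each drug. All tested genes had 18.9% called in PAN against Sham, 8.62% in PAN+MP against PAN and 3.68% in PAN+Pio against PAN. The summed mesangial markers ranged over 993 to 1166 CPM in PAN+Pio, 1032 to 1166 CPM in PAN+MP, 1393 to 1882 CPM in PAN and 1096 to 1694 CPM in Sham. Tagln, an actin-binding protein of contractile cells, averaged 35.8 ± 11.0 CPM in PAN+Pio, 39.5 ± 4.77 CPM in PAN+MP, 161 ± 35.0 CPM in PAN and 25.0 ± 8.66 CPM in Sham (SD, n = 4). Acta2, smooth muscle actin, averaged 24.9 ± 4.24 CPM in PAN+Pio, 18.6 ± 3.24 CPM in PAN+MP, 41.9 ± 7.35 CPM in PAN and 23.5 ± 6.25 CPM in Sham (SD, n = 4). For both, the PAN libraries did not overlap those of any other group. Tagln and Acta2 are named after their values were seen. The most abundant of the 6 were Itga8, Pdgfrb and Gata3. Itga8 averaged 757 CPM in PAN and 596 CPM in Sham, but Pdgfrb was alike at 486 and 482 CPM. Gata3 was lower in PAN, at 110 CPM against 132 CPM in Sham. The part of mesangial cells in the C1q levels was not tested.

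**Figure D2:**
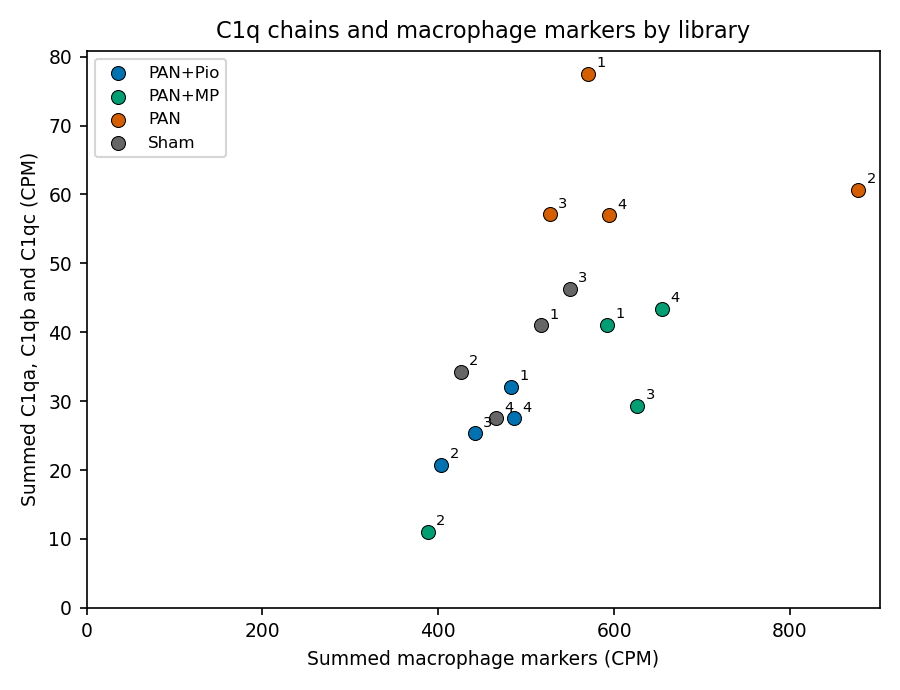
Summed C1qa, C1qb and C1qc (vertical axis, CPM) against the sum of 13 macrophage markers (horizontal axis, CPM), 1 point per library, numbered within its group and coloured by group. The 4 PAN libraries lie between 57.0 and 77.5 CPM of C1q, above the others, and PAN+MP library 2 lies lowest at 11.1 CPM.

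The B chain made up a smaller part of C1q reads in 2 of the PAN+Pio libraries. Its share was 20.8%, 19.9%, 24.5% and 24.0% in PAN+Pio libraries 1 to 4, against 25.9%, 25.5%, 27.3% and 24.0% in PAN, with exact binomial 95% intervals of 18.02 to 23.9% for PAN+Pio library 1 and 16.6 to 23.5% for PAN+Pio library 2. The groups overlapped, and the difference of -3.37 percentage points had an exact permutation p of 0.0571 (two-sided). This share was chosen after its values were seen. Without PAN+Pio library 3 the difference was -4.10 percentage points with an exact p of 0.0286. This was the only 1 of 8 omissions under 0.05, and the exact p reached 0.143 in others.

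Over the 16 libraries, the 5 genes outside the 9 whose log2 levels were most like those of summed C1q were Ctss, Alox5, Fcgr1a, RT1-Da and Folr2, with Pearson's r of 0.942, 0.926, 0.923, 0.918 and 0.905. Taken within groups, their r was 0.908, 0.866, 0.851, 0.812 and 0.883. These values share libraries and are a description.

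C1s, the protease that C1q activates, varied more between rats than between groups. It had 7.23, 5.03, 10.8 and 5.11 CPM in PAN+Pio, 5.87, 4.32, 7.42 and 8.42 CPM in PAN+MP, 7.68, 11.1, 12.8 and 4.61 CPM in PAN, and 4.05, 7.21, 5.89 and 5.14 CPM in Sham. PAN library 4 was as low as Sham, and all groups overlapped. The log2 fold change in PAN against Sham was 0.70 ± 0.32 (edgeR adjusted p = 0.132), and without PAN library 4 it was 0.91 (edgeR adjusted p = 0.0481). Against PAN it was -0.37 ± 0.31 in PAN+Pio and -0.48 ± 0.31 in PAN+MP, with edgeR adjusted p of 0.655 and 0.437.

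C3, cleaved by every complement route, had 4.44, 5.75, 3.22 and 5.79 CPM in PAN+Pio, 3.80, 4.42, 6.21 and 6.34 CPM in PAN+MP, 3.90, 4.63, 3.28 and 4.91 CPM in PAN, and 3.87, 3.98, 5.59 and 6.08 CPM in Sham. All groups overlapped. Its log2 fold change was -0.23 ± 0.23 in PAN against Sham, 0.31 ± 0.23 in PAN+MP against PAN and 0.20 ± 0.23 in PAN+Pio against PAN, with edgeR adjusted p of 0.514, 0.499 and 0.766. The genes most like C3 over the 16 libraries were Myg1, Fubp3, Mef2b, Mirlet7f-2 and LOC102552590, with Pearson's r from 0.852 down to 0.778.

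Cfb, factor B, which binds C3b to form the alternative pathway convertase, fell in PAN glomeruli. It had 3.03, 4.99, 4.28 and 4.50 CPM in PAN+Pio, 11.7, 4.54, 4.09 and 5.22 CPM in PAN+MP, 5.19, 5.12, 3.31 and 3.62 CPM in PAN, and 9.60, 9.86, 12.6 and 4.09 CPM in Sham. Sham library 4 lay within the PAN range, and PAN+MP libraries 1, 2 and 4 lay within the Sham range. The log2 fold change in PAN against Sham was -1.07 ± 0.35 (edgeR adjusted p = 0.0438). The call was lost without PAN library 1 (edgeR adjusted p = 0.0575), 3 (0.123) or 4 (0.0964), without Sham library 1 (0.0926), 2 (0.0750) or 3 (0.114), with the proximal tubule score as a covariate (log2 fold change -0.95, edgeR adjusted p = 0.0815), with only the 2 groups fitted (0.0626) and without the tagged libraries (0.0849). Neither drug moved it past the test against PAN, with -0.03 ± 0.35 in PAN+Pio (edgeR adjusted p = 0.981) and 0.57 ± 0.35 in PAN+MP (edgeR adjusted p = 0.401). In PAN+Pio against Sham it stood at -1.10 ± 0.35 (edgeR adjusted p = 0.0796), and without Sham library 4 at -1.36 (edgeR adjusted p = 0.0281), and it passed in DESeq2 (adjusted p = 0.0221). The genes most like Cfb were Stat2, Adar, RT1-T24-3, LOC103690992 and LOC102546709, with Pearson's r from 0.853 down to 0.820 over the 16 libraries, where Stat2 is the signal transducer of type I interferon and Adar an interferon-induced RNA editing enzyme.

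Cfd, factor D or adipsin, the protease that cleaves factor B and a known product of fat cells, was close to the detection limit. Its counts were 11, 11, 8 and 10 reads in PAN+Pio, 12, 2, 18 and 21 in PAN+MP, 14, 16, 10 and 15 in PAN, and 19, 11, 5 and 17 in Sham. PAN+MP library 2, with 2 reads, was below the floor of 3. All groups overlapped and no comparison passed, with log2 fold changes of -0.06 ± 0.49 in PAN against Sham, -0.26 ± 0.49 in PAN+MP against PAN and -0.38 ± 0.50 in PAN+Pio against PAN, and edgeR adjusted p from 0.806 to 0.946. Of 8 fat cell markers, Plin1, Lep, Retn and Plin4 lay under 3 reads on average, and the summed level, nearly all of it Lipe, was 46.1 to 74.5 CPM in PAN+Pio, 42.5 to 66.1 CPM in PAN+MP, 46.1 to 79.0 CPM in PAN and 47.6 to 106 CPM in Sham. One of the 4 tested fat cell markers, Fabp4, a fatty acid carrier also made by macrophages and endothelial cells, was called by edgeR. It averaged 0.728 ± 0.727 CPM in PAN+Pio, 0.373 ± 0.264 CPM in PAN+MP, 1.81 ± 1.01 CPM in PAN and 0.255 ± 0.155 CPM in Sham (SD, n = 4). Fabp4 rose in PAN against Sham by 2.81 ± 0.71 on the log2 scale (edgeR adjusted p = 0.0124) and fell by 2.26 ± 0.66 in PAN+MP against PAN (edgeR adjusted p = 0.0440), with overlapping libraries in both. The share of fat cell markers called was 25% in each, beside 18.9% and 8.62% of all tested genes. The part of fat cell RNA in the Cfd levels was not tested. The genes most like Cfd were Clec10a, Ccdc77, Plcb2, LOC102556297 and Kctd8, with Pearson's r from 0.777 down to 0.687.

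The membrane regulators among the 9, Cd55 and Cd59, had a higher mean under the drugs than in PAN, while Cd46, a membrane regulator outside the 9, did not. Of 8 podocyte markers 1 rose and 3 fell in PAN against Sham, and 1 rose and none fell under each drug against PAN (edgeR). The shares called were 50% in PAN against Sham and 12.5% under each drug. All tested genes had 18.9% called in PAN against Sham, 8.62% in PAN+MP against PAN and 3.68% in PAN+Pio against PAN. Among 8 endothelial markers, 6 fell and none rose in PAN against Sham by edgeR, a share of 75%. PAN+MP had 5 lower and none higher than Sham, or 62.5% beside 12.7% of all tested genes. PAN+Pio had 3 lower and none higher than Sham, or 37.5% beside 5.08%. Neither drug had any of the 8 called against PAN. The part of podocytes or endothelial cells in the Cd55 and Cd59 levels was not tested. Cd55, decay-accelerating factor, had 375, 290.2, 397 and 407 CPM in PAN+Pio, 371, 627, 410.3 and 379.6 CPM in PAN+MP, 230.0, 168, 250.4 and 424 CPM in PAN, and 219, 262, 151 and 195 CPM in Sham. Every library of the drug groups lay above every Sham library, while PAN library 4 lay among the drug-treated ones. Cd55 rose in PAN+MP against Sham by 1.11 ± 0.25 on the log2 scale, or 2.17-fold (edgeR adjusted p = 0.0124), and the call held under all 14 alternatives, with edgeR adjusted p of at most 0.0454. In PAN+Pio against Sham the log2 fold change was 0.83 ± 0.25 (edgeR adjusted p = 0.0637), and it passed in DESeq2 (adjusted p = 0.0195) and when only these 2 groups were fitted (edgeR adjusted p = 0.0288). In PAN+MP against PAN it was 0.74 ± 0.25 (edgeR adjusted p = 0.0804), and without PAN library 4 it was 1.05 (edgeR adjusted p = 0.00702). It also passed in DESeq2 (adjusted p = 0.0361). In PAN+Pio against PAN it was 0.45 ± 0.25 (edgeR adjusted p = 0.404).

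Cd59, the inhibitor of the membrane attack complex, had 166, 184, 183 and 191 CPM in PAN+Pio, 159.8, 195, 189 and 287 CPM in PAN+MP, 150.1, 132, 163 and 145 CPM in PAN, and 192, 212, 161 and 188 CPM in Sham. The PAN libraries were the lowest as a group, and PAN+MP library 4 was the highest of the 16. Cd59 rose in PAN+MP against PAN by 0.49 ± 0.14 on the log2 scale (edgeR adjusted p = 0.0388). Without PAN+MP library 4 the change was 0.30 (edgeR adjusted p = 0.0970), and the call was also lost without PAN library 1 (0.0764), 2 (0.111) or 4 (0.0774) or PAN+MP library 2 (0.0610) or 3 (0.0531), with only the 2 groups fitted (0.116) and without the tagged libraries (0.0523). In PAN+Pio against PAN it was 0.30 ± 0.14 (edgeR adjusted p = 0.322), although those libraries did not overlap. In PAN against Sham it was -0.35 ± 0.14 (edgeR adjusted p = 0.0922), and it passed with the proximal tubule score as a covariate (-0.43, edgeR adjusted p = 0.0287). RefSeq lists rat Cd59 as Cd59b, and the deposited table has a single row of this name.

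Counted over the 9 genes, 1 fell in PAN against Sham (Cfb), where 18.9% of all tested genes were called, 10.4% higher and 8.52% lower. In PAN+MP against PAN 1 rose (Cd59) and 2 fell (C1qa and C1qb), where 8.62% of all tested genes were called, 3.31% higher and 5.31% lower. In PAN+Pio against PAN 2 fell (C1qa and C1qb), where 3.68% of all tested genes were called, 0.832% higher and 2.85% lower. In PAN+MP against Sham 1 rose (Cd55), where 12.7% were called, 5.98% higher and 6.72% lower. In PAN+Pio against Sham edgeR called none, where 5.08% were called, 3% higher and 2.09% lower. There DESeq2 called 2 of the 9 and 1780 of the 17061 tested genes. It gave no adjusted p for 1 of the 9 and for 1656 genes in all. Before adjustment, edgeR's p was under 0.05 for 6, 5, 3, 1 and 2 of the 9 in these comparisons, in the order given. The share of all tested genes under 0.05 before adjustment was not counted. The libraries of the 2 groups did not overlap for 3 of 9 genes in PAN against Sham (20.5% of all tested genes), for 3 in PAN+MP against PAN (15.8%) and for 4 in PAN+Pio against PAN (10.7%), 1 in PAN+MP against Sham (20.6%) and 2 in PAN+Pio against Sham (13.2%). The members' share of edgeR calls was below that of all genes in PAN against Sham, PAN+MP against Sham, PAN+Pio against Sham and PAN+Pio against PAN+MP.

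**Figure D3:**
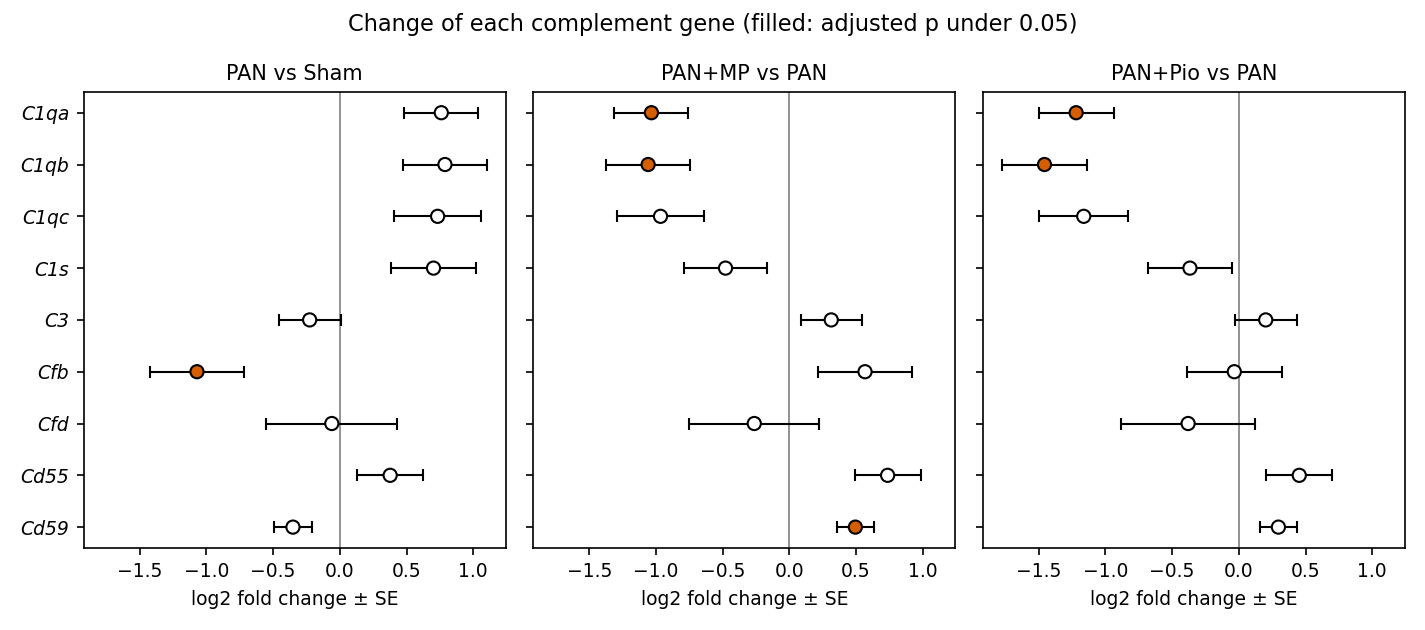
Log2 fold change with its SE (horizontal axis) of the 9 complement genes (vertical axis) in 3 comparisons, the first-named group over the second, with 4 rats a group. Filled points passed edgeR's test at an adjusted p under 0.05. The C1q chains lie at 0.73 to 0.79 in PAN against Sham and at -1.46 to -0.97 under the drugs.

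Between the drugs edgeR called none of the 9 genes, where 0.633% of all tested genes were called, 0.428% higher and 0.205% lower. DESeq2 also called none of the 9, and 294 of all tested genes. None of the 9 was under 0.05 in edgeR before adjustment. The libraries of the drug groups overlapped for all 9 genes, where 6.97% of all tested genes did not overlap. The log2 fold changes of PAN+Pio over PAN+MP ran from -0.60 for Cfb to 0.11 for C1s. Approximate 95% intervals, from the SE and 12 residual degrees of freedom, were -0.79 to 0.42 for C1qa, -1.09 to 0.29 for C1qb, -0.82 to 0.25 for Cd55 and -0.50 to 0.11 for Cd59. The lack of a call does not show that the drugs act alike, since the intervals span differences in both directions.

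The rest of the pathway was described with 41 further complement genes, of which 30 passed the filter on low counts. C4a, C8a, C9, Mbl2, Masp2, Colec10, Colec11, C4bpa, C4bpb, Vtn and Vsig4 did not. In PAN against Sham 5 of the 30 rose and none fell (median log2 fold change 0.38), in PAN+MP against PAN none rose and 3 fell (median -0.22), and in PAN+Pio against PAN none rose and 2 fell (median -0.32). These shares, 16.7%, 10% and 6.67%, stand beside 18.9%, 8.62% and 3.68% of all tested genes. Leaving out a library, the first count became 2 (Sham library 1), 3 (Sham library 3 or PAN library 3), 8 (Sham library 2) or 10 (PAN library 2). The second was 1 without PAN+MP library 2 or 3. The third was 0 without PAN library 1 or PAN+Pio library 2, 3 or 4, and 1 without PAN library 2 or 3 or PAN+Pio library 1.

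Of the fluid regulators, Cfi, factor I, the protease that degrades C3b, rose in PAN against Sham by 1.63 ± 0.54 on the log2 scale (edgeR adjusted p = 0.0464). Its level was 0.185 CPM in PAN library 2 and up to 2.45 CPM in PAN library 3, and with the proximal tubule score as a covariate the change was 0.87 (edgeR adjusted p = 0.231). The call was also lost without PAN library 1, 3 or 4 or Sham library 1, 2 or 3 (edgeR adjusted p from 0.0590 to 0.203), without the filter (0.0529), with only the 2 groups fitted (0.130) and without the tagged libraries (0.106). Without PAN library 2 it passed against PAN under both drugs, at -1.73 in PAN+Pio and -1.36 in PAN+MP (edgeR adjusted p of 0.0349 and 0.0433). Serping1, the C1 inhibitor, did not pass in PAN against Sham (0.38 ± 0.16, edgeR adjusted p = 0.111) but did without Sham library 2 (0.61, edgeR adjusted p = 0.00330) or PAN library 2 (0.48, edgeR adjusted p = 0.0370). Serping1 rose in PAN+MP against Sham by 0.70 ± 0.16 on the log2 scale (edgeR adjusted p = 0.0142), with no overlapping libraries. In PAN+Pio against Sham it did not pass (0.41 ± 0.16, edgeR adjusted p = 0.140). Cr1l, which encodes the rodent membrane regulator Crry, had 174 ± 12.8 CPM in PAN+Pio, 188 ± 15.2 CPM in PAN+MP, 183 ± 8.92 CPM in PAN and 195 ± 4.94 CPM in Sham (SD, n = 4). Its edgeR adjusted p ran from 0.395 to 0.858 in PAN against Sham and under each drug against PAN. Cd46, membrane cofactor protein, named after its values were seen, averaged 6.50 ± 0.869 CPM in PAN+Pio, 6.79 ± 1.01 CPM in PAN+MP, 7.94 ± 1.35 CPM in PAN and 10.2 ± 2.30 CPM in Sham (SD, n = 4). It fell against Sham by 0.65 ± 0.18 on the log2 scale in PAN+Pio (edgeR adjusted p = 0.04997) and by 0.59 ± 0.18 in PAN+MP (edgeR adjusted p = 0.0443), with overlapping libraries. Against PAN it did not pass under either drug (edgeR adjusted p of 0.494 in PAN+Pio and 0.551 in PAN+MP).

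Among the receptors, C3ar1, which binds C3a, had 2.53, 3.03, 2.20 and 2.54 CPM in PAN+Pio, 3.70, 2.11, 1.997 and 2.86 CPM in PAN+MP, 6.47, 7.38, 4.35 and 4.72 CPM in PAN, and 2.07, 3.49, 3.88 and 1.68 CPM in Sham. Every PAN library lay above all others, as for the C1q chains. C3ar1 rose in PAN against Sham by 1.04 ± 0.27 on the log2 scale (edgeR adjusted p = 0.0150), fell by 1.15 ± 0.27 in PAN+Pio against PAN (edgeR adjusted p = 0.0272) and fell by 1.10 ± 0.27 in PAN+MP against PAN (edgeR adjusted p = 0.0175). The first call was lost without Sham library 1 (edgeR adjusted p = 0.0543). The PAN+MP call was lost without PAN library 2 or PAN+MP library 2 or 3 (edgeR adjusted p from 0.0650 to 0.0691), and the PAN+Pio call without PAN library 1 or 2 or any PAN+Pio library (from 0.0593 to 0.100). C5ar1, the C5a receptor, had log2 fold changes of 0.97, -0.95 and -1.02 in PAN against Sham, PAN+MP against PAN and PAN+Pio against PAN, and none passed (edgeR adjusted p of 0.0652, 0.113 and 0.141). In PAN against Sham C5ar1 passed in DESeq2 (adjusted p = 0.0374) and when only the 2 groups were fitted (edgeR adjusted p = 0.0301). Without PAN+MP library 4 the PAN+MP value was -1.29 (edgeR adjusted p = 0.0375).

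Cd93, a C1q receptor-like protein of endothelial and myeloid cells, had 156, 170.0, 241 and 163 CPM in PAN+Pio, 75.5, 63.5, 66.8 and 99.7 CPM in PAN+MP, 196, 308, 143 and 164 CPM in PAN, and 211, 162, 263 and 109 CPM in Sham. The PAN+MP libraries lay below all others. Of 8 endothelial markers 5 fell and none rose in PAN+MP against Sham by edgeR, a share of 62.5% beside 12.7% of all tested genes. In PAN+MP against PAN none of the 8 was called by edgeR, beside 8.62% of all tested genes. Before adjustment 1 of the 8 was under 0.05. The part of endothelial cells in the Cd93 level was not tested. Cd93 fell by 1.41 ± 0.27 in PAN+MP against PAN (edgeR adjusted p = 0.00310), and the call held under all 14 alternatives. It did not pass in PAN+Pio against PAN (-0.15 ± 0.26, edgeR adjusted p = 0.861). In PAN+MP against Sham the log2 fold change of Cd93 was -1.29 ± 0.27 (edgeR adjusted p = 0.00937), with no overlapping libraries. Of the terminal components, C7 rose in PAN against Sham by 1.83 ± 0.53 (edgeR adjusted p = 0.0251), with 31.3, 9.20, 35.7 and 6.55 CPM in PAN and 2.99, 10.0, 3.91 and 6.35 CPM in Sham. The groups overlapped, and the call was lost without PAN library 1 or 3 or Sham library 1 or 3 (edgeR adjusted p from 0.0663 to 0.103), and with only the 2 groups fitted (0.0774). Colec12, a scavenger collectin, rose in PAN against Sham by 1.38 ± 0.32 (edgeR adjusted p = 0.00693), a call that held under all 14 alternatives.

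**Figure D4:**
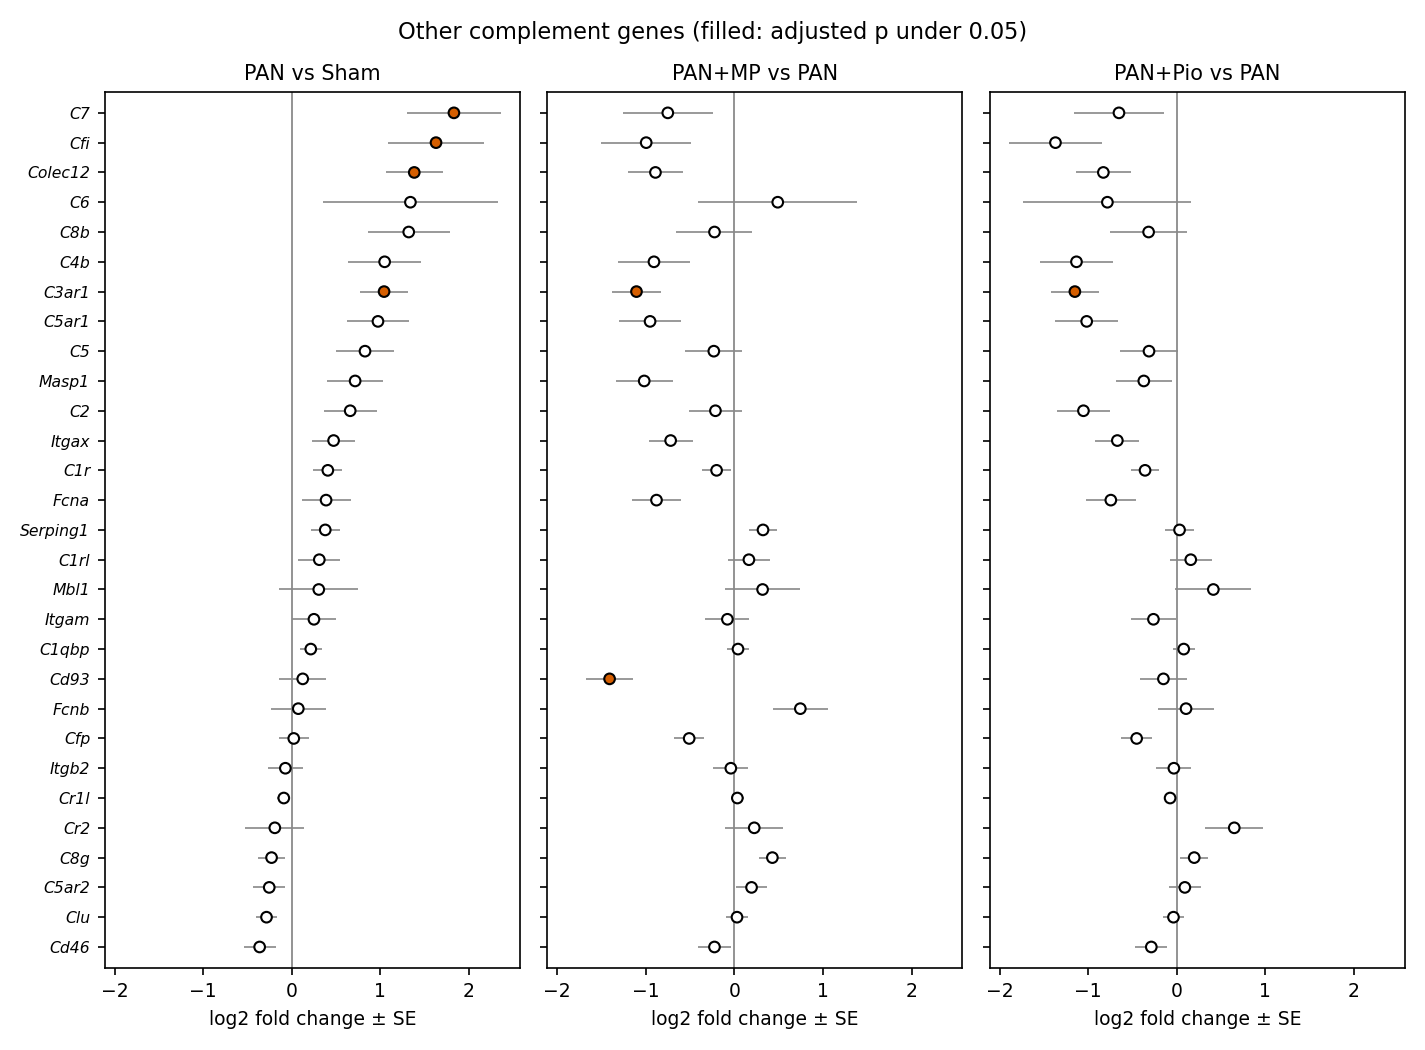
Log2 fold change with its SE (horizontal axis) of the complement genes outside the 9 that were tested and are reported here (vertical axis, ordered by PAN against Sham) in 3 comparisons, the first-named group over the second. Filled points passed edgeR's test at an adjusted p under 0.05. C3ar1 is filled in all 3 panels, to the right of 0 in PAN against Sham and to the left under both drugs, and Cd93 is filled in PAN+MP against PAN.

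The authors' deposited table gave adjusted p-values under 0.05 for C1qa (0.0443) and C1qb (0.0101) in PAN against PAN+Pio, for Cd59 (0.0245) in PAN against PAN+MP and for Cd55 in PAN+MP against Sham (0.00217) and in PAN+Pio against Sham (0.0424). In the authors' deposited table C1qa and C1qb were at 0.0763 and 0.0699 in PAN against PAN+MP, and Cfb was at 0.0733 in PAN against Sham, where edgeR's test called all 3.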

How the data were processed

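Glomerular RNA of 16 samples was sequenced from ribosome- and globin-depleted, directional libraries made from 350 ng of total RNA, per the labels' protocols. The submitters' processing notes name cutadapt, STAR, HTSeq 0.6.1p1, DESeq2 and the build Rnor_6.0, with no role or order, and the annotation release and the use of strand in counting were not given in the sources used here. A deposited table held, per the file headers, raw read counts per gene and library, which were used, and the authors' log2 fold changes and adjusted p-values per pair of groups, which are quoted only where named. A further 16 per-sample columns of normalized values were not used. Columns were assigned to groups by name and carry no replicate numbers. PAN columns bear the word high, unexplained in the labels. Nothing states whether pairs of libraries share a preparation. Replicates differed by at least 10.8 times the variance that counting gives over 24 pairs.

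Tests ran in edgeR 4.0.16 under R 4.3.3: filterByExpr (minimum count 10), TMM scaling (factors 0.952 to 1.05), 1 model with a term per group (12 residual degrees of freedom), glmQLFTest, and Benjamini-Hochberg adjustment over 17061 genes, called under 0.05. The SE is the log2 fold change over the square root of F. Log2 levels for scores and likeness used a prior count of 2. DESeq2 1.42.0, another scaling, no filter, fits of 2 groups, a tubule covariate and left-out libraries were alternatives. The test was tested on simulated data. The members and gene lists were chosen with earlier results of these data known. All 9 members were named, together with the other complement genes called in the 3 main comparisons, fixed receptors and regulators, and markers. One item of the list of other complement genes enters its counts and is not reported here. Adgre1, a listed macrophage marker, was not analysed here. Binomial intervals and floors cover counting error only, while the intervals of the differences between the drugs rest on the spread between rats in the fit. Reads of near-identical copies (C4a and C4b) are uncertain.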

Additional observations from a re-analysis of the deposited data

Results flagged for a closer look

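Of 44 sets of 4 libraries, 4 held a library far from the other 3 by Dixon's test, where chance flags about 1 in 20. Cd55 was highest in PAN+MP library 2, at 627 CPM, the library in which the C1q chains were lowest. Cfb was highest in PAN+MP library 1, at 11.7 CPM. Cfd was lowest in PAN library 3, at 0.345 CPM, which is 10 reads. The log2 ratio of C1q to macrophage markers was lowest among Sham libraries in library 4, at -4.08.

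Cd93 differed between the drugs, at a log2 fold change of 1.26 ± 0.27 (SE, n = 4) in PAN+Pio against PAN+MP (edgeR adjusted p = 0.0435), and it was lower in every PAN+MP library than in any PAN+Pio library. The call was lost on leaving out any of the 8 libraries (edgeR adjusted p from 0.0661 to 0.172).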

How the results depend on the processing

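No paired analysis was possible because the count columns carry no replicate numbers. With DESeq2 size factors in edgeR, every count of called genes was within 1.5 times the reported one. The number of the 9 genes called in PAN against Sham (1 as reported) was 2 in DESeq2, 3 with only these 2 groups and 0 without the 2 tagged libraries. In PAN+MP against PAN (3) it was 5, 0 and 1, in PAN+Pio against PAN (2) it was 0 without the tagged libraries, and in PAN+Pio against Sham (0) it was 2 in DESeq2 and 1 with only the 2 groups. Leaving out 1 library at a time gave 0 to 1, 0 to 3, 0 to 2 and 0 to 1, and 1 in PAN+MP against Sham and 0 between the drugs. DESeq2 called more of all tested genes than edgeR did. Its totals were 4042 in PAN against Sham, 1998 in PAN+MP against PAN and 1780 in PAN+Pio against Sham. Those of edgeR were 3231, 1470 and 867. The totals over all genes in the other alternatives are not given here. For the other complement genes, PAN against Sham (5) gave 8 without the tagged libraries and 2 to 10 leaving out 1 library, PAN+MP against PAN (3) gave 9 in DESeq2, 5 with the tubule covariate and 1 to 4, and PAN+Pio against PAN (2) gave 0 and 0 to 2. C1q per macrophage marker in PAN+Pio against PAN was -0.78 without the tagged libraries (exact p = 0.0571). The difference in the C1qb share was -4.10 percentage points without them. Leaving out 1 library gave -0.96 to -0.63 for C1q per macrophage marker in PAN+Pio against PAN, -1.17 to -0.73 in PAN+MP against PAN and 0.25 to 0.58 in PAN against Sham, and -4.10 to -2.58 percentage points for the C1qb share.

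Of 1147 alternative values for single genes, 994 kept sign and call, 25 gained a call, 89 lost one and 39 changed sign, and no value that changed sign passed the test. Without the tagged libraries the log2 fold change was -0.17 for C1s and 0.036 for C3 in PAN+Pio against PAN+MP, -0.00194 for C3 in PAN+MP against Sham, 0.034 for C3 in PAN+Pio against Sham and -0.012 for Serping1 in PAN+Pio against PAN. With the tubule covariate Cfb in PAN+Pio against PAN was 0.015. Leaving out 1 library, PAN+Pio against PAN+MP ran over -0.46 to 0.0025 for C1qa, -0.49 to 0.11 for C1qc, -0.17 to 0.26 for C1s, -0.23 to 0.037 for C3 and -0.48 to 0.16 for Cfd. PAN+MP against Sham ran over -0.50 to 0.0074 for C1qb, -0.55 to 0.053 for C1qc, -0.030 to 0.20 for C3, -0.062 to 0.24 for Cd59 and -0.63 to 0.034 for Cfd. PAN+Pio against Sham ran over -0.13 to 0.12 for C3 and -0.13 to 0.0072 for Cd59. PAN+Pio against PAN ran over -0.13 to 0.092 for Cfb, -0.32 to 0.13 for Cd93 and -0.077 to 0.088 for Serping1. PAN+MP against PAN ran over -0.53 to 0.11 for Cfd and -0.017 to 0.072 for Cr1l. PAN against Sham ran over -0.37 to 0.22 for Cfd and -0.17 to 0.32 for Cd93. The causes of these changes were not tested. Alternatives were not run for Cd46, for Serping1 and Cd93 in the drug groups against Sham or for single marker genes. Depth limits Cfd, with 2 to 21 reads in a library.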
